A study of Mus musculus with 3 samples.

Results

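Inflammasomes are cytosolic protein platforms through which myeloid cells answer microbial products and cell damage. A sensor protein recognizes its trigger and recruits the adaptor ASC or caspase-1 directly, and caspase-1 then cleaves the precursors of IL-1 beta and IL-18. Inflammatory caspases also cleave gasdermin D, whose fragments form membrane pores, and NINJ1 afterwards ruptures the plasma membrane, the last event of the lytic cell death called pyroptosis. In the spinal cord of mice with EAE, an autoimmune model of multiple sclerosis, infiltrating monocytes and their progeny are known sources of IL-1 beta.

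The 10 genes described here were taken as a list of sensors (Nlrp3, Nlrp1b, Nlrc4, Aim2 and Mefv), the adaptor (Pycard), inflammatory caspases (Casp1 and Casp4) and effectors of lysis (Gsdmd and Ninj1). All 10 were found among the 22238 genes listed in all 3 libraries, and all 10 were above 3 TPM in at least 1 library of every comparison. TPM is a share of transcripts corrected for transcript length, here rescaled to the same sum over the common genes in each library.

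The libraries came from female C57BL/6J mice, 10 to 12 weeks old and without any engineered allele named in the labels. All mice had received myelin oligodendrocyte glycoprotein peptide in complete Freund's adjuvant under the skin, and 250 ng of pertussis toxin into the peritoneum 2 and 24 hours later. At days 14 to 15, the peak of disease, 3 populations were sorted as CD11b+ CD45+ cells without Ly6G. Monocytes of the bone marrow (BM monocytes) were Ly6Chi and CD11c-, monocytes of the spinal cord (SC monocytes) were Ly6Chi and CD64+, and the APCs thought to derive from them in the spinal cord were CD64+ and Ly6Clow/-. Each population was sequenced as 1 library of cells combined from 18 mice in 3 experiments for both spinal cord populations and from 13 mice in 2 experiments for the bone marrow. One label of the APC library names the bone marrow as its origin, whereas its title and its tissue label name the spinal cord, which was used here. No library from mice without EAE was among the samples, so all 3 populations share the immunization. Handling before the sort differed by tissue. Spinal cords were digested with collagenase D and DNase I and spun on Percoll. Bone marrow was flushed out and enriched for monocytes with a kit. In comparisons with the bone marrow, effects of tissue and of handling cannot be told apart.

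With 1 library per population, no difference below has a replicate check, and every interval covers counting error only. PCR copies are not independent molecules. The estimated reads of all genes summed to 33280643 (BM monocytes), 27283795 (SC monocytes) and 28209589 (APCs). The monocyte libraries list 54432 genes each and the APC library 22242, so the APC values rest on another transcript set and the effective length of a gene can differ there. The markers were checked against the labels. All 7 monocyte genes were above 3 TPM in each library, and the APC list (5 genes) summed to 172, 5389 and 12788 TPM. The neutrophil list (9 genes) summed to 1239, 192 and 414 TPM (BM monocytes, SC monocytes and APCs), with none of its genes at 0 reads. The microglia list (8 genes) summed to 13, 99.2 and 265 TPM in the same order, with Sall1 and Slc2a5 at 0 reads in the bone marrow. The T cell list (7 genes) summed to 0.507, 55.4 and 80.9 TPM, with Cd3g, Cd4 and Trac at 0 reads in the bone marrow. The list of CNS-associated macrophages (6 genes) summed to 15.7, 36.8 and 51.1 TPM. The list of conventional dendritic cells (6 genes) summed to 40.8, 21.3 and 28.3 TPM, with 1, 3 and 5 of its genes above 3 TPM. The B cell list (4 genes) summed to 8.69, 3.52 and 3.77 TPM. The part of these cell types in the results below was not tested. In such bulk libraries, fewer cells of a type and less RNA per cell cannot be told apart.

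The fold changes below are given as log2 ratios of estimated reads, scaled by median-of-ratios size factors, with a 98% interval. To be called, a gene needed an interval wholly past 2-fold and more than 3 TPM in either library of the pair.

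The question of the first comparison is what differs between monocytes in the inflamed spinal cord and those still in the bone marrow, handling included. In SC monocytes, 5 of the 10 genes were called higher and 0 lower: Nlrp3, Nlrp1b, Mefv, Casp4 and Ninj1. Over all genes tested, 13.8% were called higher and 10.7% lower, or 1386 and 1073 genes, and scaling by total reads turned this balance to 1239 and 1394. The median log2 ratio of the 10 genes was 1.07, against -0.15 for the 10072 genes tested. The remaining genes, Pycard, Casp1, Gsdmd, Aim2 and Nlrc4, were not called. The calls thus covered 3 of the 5 sensors, Casp4 and Ninj1. The values of Aim2, Nlrc4, the adaptor, Casp1 and Gsdmd stayed within 2-fold, with Gsdmd nearest to that threshold at a log2 ratio of 0.88. The plot of TPM by library shows these levels side by side.

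**Figure D1:**
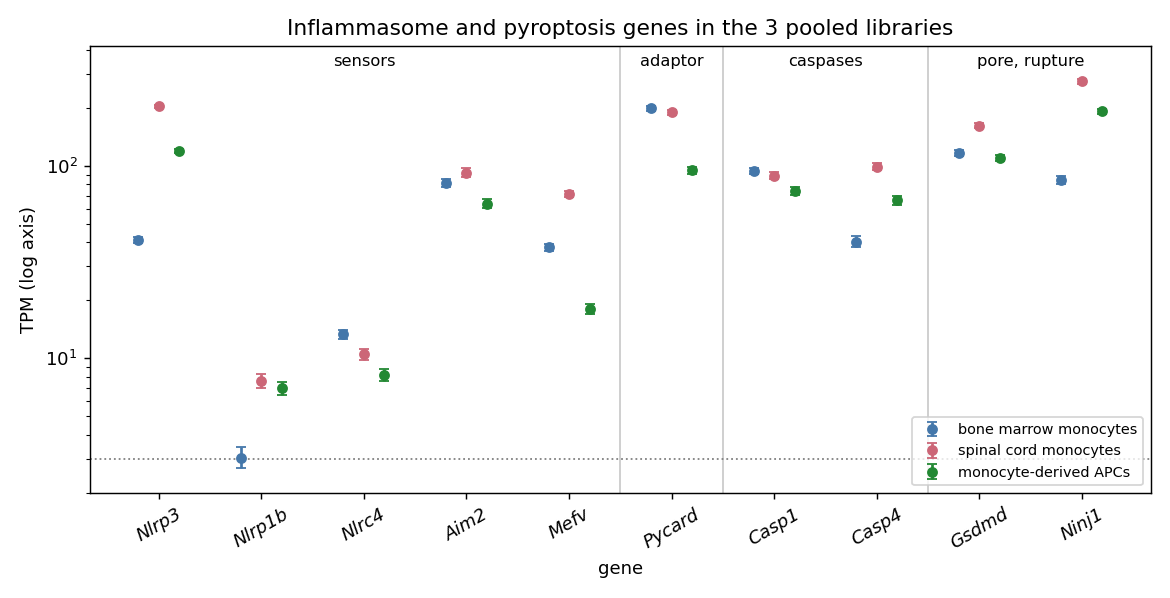
TPM (log axis) of the 10 genes in BM monocytes, SC monocytes and monocyte-derived APCs, 1 library each. Points are rescaled TPM, bars are 95% Wilson intervals of the counting error, and the dotted line marks 3 TPM. Nlrp3 stands at 41.2, 204 and 119.8 TPM, while Casp1 stays between 74.1 and 94.3 TPM.

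Nlrp3 encodes the sensor that responds to potassium efflux, crystals and many other forms of cell stress. It lies on chromosome 11 of GRCm38 from 59541568 to 59566956 (ENSMUSG00000032691.14). It had 2768 reads in BM monocytes, 11531 in SC monocytes and 8091 in APCs. In TPM this was 41.2 (95% interval 39.6 to 42.7), 204 (200.2 to 208) and 119.8 (117 to 122). The SC monocytes were the highest and the bone marrow the lowest, and none of the 3 intervals overlapped. Between the monocyte populations, Nlrp3 rose by a log2 ratio of 2.54 (98% interval 2.47 to 2.61), a 5.82-fold difference and the largest among the 10 genes, also after division by effective length. Among the genes active in each library, it moved from percentile 63.4 to percentile 92.1 of TPM.

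Mefv encodes pyrin, a sensor that responds to bacterial toxins, and lies on chromosome 16 from 3707218 to 3718097. Its reads were 2154 in BM monocytes, 3687 in SC monocytes and 1018 in APCs, or 37.7, 71.3 and 18.1 TPM. Mefv was thus highest in SC monocytes and, unlike Nlrp3, lowest in APCs. The rise between the monocyte populations had a log2 ratio of 1.26 (98% interval 1.17 to 1.35). With total reads as the scaling it was 1.07, and it was called neither there nor over all genes of both monocyte libraries.

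Nlrp1b encodes a sensor that is switched on when proteases cleave it, and lies on chromosome 11 from 71153102 to 71230733. It had 255 reads in BM monocytes, 586 in SC monocytes and 576 in APCs. Its TPM of 3.04, 7.63 and 6.96 made it the least abundant of the 10 genes in each library. Nlrp1b was called higher in SC monocytes, with a log2 ratio of 1.68 (98% interval 1.43 to 1.93). Its neighbour and close paralog Nlrp1a went the other way, with 1533, 443 and 495 reads and a log2 ratio of -1.31 (98% interval -1.49 to -1.13) between the monocyte populations. Reads of Nlrp1a and Nlrp1b summed to 1788, 1029 and 1071, and the share assigned to Nlrp1b was 14.3%, 56.9% and 53.8%. The summed reads gave a log2 ratio of -0.31, so the pair as a whole did not follow Nlrp1b. Of the distinct 50-base words in the Nlrp1b transcripts of GENCODE M21, 1.45% also occur in transcripts of other genes, with Nlrp1a first among these.

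Aim2 encodes a sensor of double-stranded DNA in the cytosol and lies on chromosome 1 from 173350879 to 173466040. It had 1619, 1336 and 1581 reads in BM monocytes, SC monocytes and APCs, or 81.6, 91.9 and 63.6 TPM. Its log2 ratio between the monocyte populations was 0.20 (98% interval 0.08 to 0.33), and it was not called. Over all genes of both monocyte libraries this value was -0.04, so its direction depends on the scaling. The effective length of Aim2 was 929 bases in the bone marrow, 750.4 bases in SC monocytes and 1191 bases in APCs. The gene Cadm3 overlaps it on the opposite strand and had between 7 and 48.1 reads in the 3 libraries.

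Nlrc4 encodes the platform that NAIP proteins assemble after binding bacterial flagellin or secretion system proteins, and lies on chromosome 17 from 74425438 to 74459142. Its reads were 1216, 891 and 747, or 13.3, 10.5 and 8.16 TPM. The log2 ratio between the monocyte populations was 0.03 (98% interval -0.11 to 0.18), which includes 0. With total reads as the scaling it was -0.15. Of the NAIP genes, which encode its upstream receptors, Naip2 had 91.3, 91.2 and 101 TPM, and Naip5 had 28.1, 27.4 and 19.8 TPM. Naip6 had 19.1, 13.8 and 11.1 TPM, and Naip1 was at or below 3.32 TPM in every library. None of the 4 was called in any comparison. Reads can be shared between these close paralogs.

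The 5 sensors together made up 177 TPM in BM monocytes, 385 TPM in SC monocytes and 217 TPM in APCs. In the bone marrow, Aim2 held 46.1% of this sum, Nlrp3 23.3% and Mefv 21.3%. In SC monocytes Nlrp3 held 52.9%, Aim2 23.9% and Mefv 18.5%. In APCs the shares were 55.3%, 29.4% and 8.35%. Nlrp3 was therefore the most abundant sensor transcript in both spinal cord libraries and Aim2 in the bone marrow. Nlrc4 held 7.53%, 2.72% and 3.76% in the 3 libraries, and Nlrp1b 1.72%, 1.98% and 3.21%. These shares carry no replicate error.

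**Figure D2:**
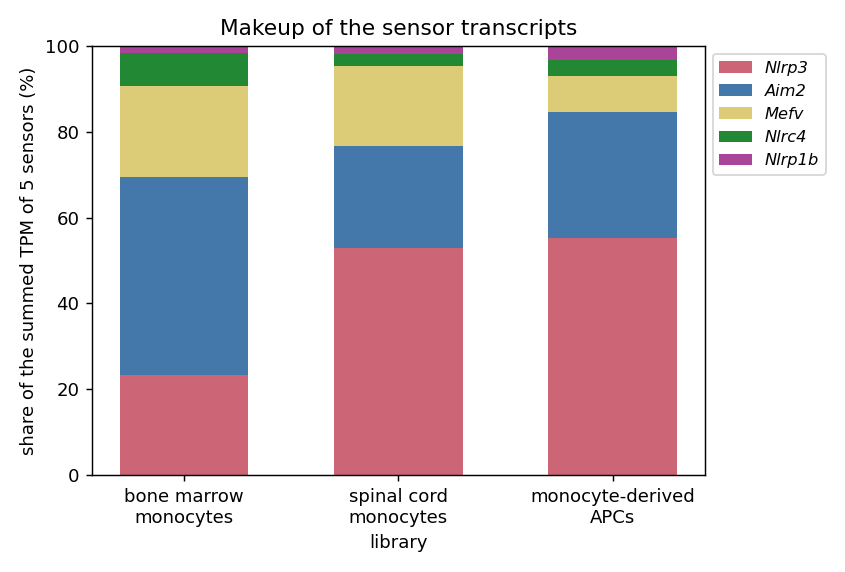
Share (%) of the summed TPM of the 5 sensors that each sensor holds, 1 bar per library. Nlrp3 goes from 23.3% in BM monocytes to 52.9% in SC monocytes and 55.3% in APCs, and Aim2 from 46.1% to 23.9% and 29.4%.

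Pycard encodes ASC, the adaptor that links most of these sensors to caspase-1, and lies on chromosome 7 from 127989708 to 127993867. It had 3926 reads in BM monocytes, 3059 in SC monocytes and 2176 in APCs, or 199 (95% interval 192 to 205), 189 (183 to 196) and 94.7 (90.8 to 98.7) TPM. The intervals of the monocyte populations overlapped, and the APC library lay below both. Its log2 ratio between the monocyte populations was 0.12 (98% interval 0.04 to 0.20), and it was -0.06 with total reads as the scaling. The ratio of Pycard TPM to the summed sensor TPM was 1.12 in BM monocytes, 0.492 in SC monocytes and 0.437 in APCs. In the annotation, 11.7% of the 50-base words of Pycard transcripts occur in other genes, mainly in Gm45205 on the opposite strand, which had 2 reads in bone marrow and 12 in SC monocytes.

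Casp1 encodes the caspase that matures IL-1 beta and IL-18. Casp4 encodes the mouse protein also known as caspase-11, which binds cytosolic lipopolysaccharide and cleaves gasdermin D. The genes are neighbours on chromosome 9, from 5298517 to 5307265 and from 5308828 to 5336783, with 1562 bases between them. Casp1 had 2578, 2096 and 1701 reads in BM monocytes, SC monocytes and APCs, or 94.3, 88.9 and 74.1 TPM. Casp4 had 801, 2000 and 1367 reads, or 40.4 (95% interval 37.7 to 43.3), 98.9 (94.7 to 103) and 66.2 (62.8 to 69.8) TPM. For Casp1 the intervals of the monocyte populations overlapped, and the APC interval lay below both. For Casp4 the intervals of the 3 libraries did not overlap.

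Between the monocyte populations, Casp4 rose by a log2 ratio of 1.80 (98% interval 1.66 to 1.94), a 3.49-fold difference. Divided by effective length, which was 928 bases in BM and 1043 bases in SC monocytes, it was 1.53 (98% interval 1.39 to 1.67). Over the settings tried, the Casp4 value ran from 1.27 to 1.80. For Casp1 the value was 0.18 (98% interval 0.08 to 0.28), and over the settings tried it ran from -0.08 to 0.18. The ratio of Casp1 to Casp4 in TPM was 2.33 in BM monocytes, 0.899 in SC monocytes and 1.12 in APCs. Casp12, the third gene of this family that was examined, was also called higher in SC monocytes, with 72 and 189 reads and a log2 ratio of 1.87 (98% interval 1.41 to 2.34), at 5.83 TPM.

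Gsdmd encodes gasdermin D, the pore-forming substrate of these caspases, and lies on chromosome 15 from 75862327 to 75867408. It had 2763 reads in BM monocytes, 3635 in SC monocytes and 3314 in APCs, or 116, 162 and 109.7 TPM. The log2 ratio between the monocyte populations was 0.88 (98% interval 0.79 to 0.96), under the 2-fold threshold of the call. Ninj1, on chromosome 13 from 49187485 to 49196244, encodes the protein that breaks the plasma membrane after pore formation. It had 1654, 4649 and 3613 reads, or 84.7 (95% interval 80.7 to 88.8), 275 (267 to 283) and 192 (186 to 198) TPM. Ninj1 was the most abundant of the 10 transcripts in both spinal cord libraries. It rose between the monocyte populations by a log2 ratio of 1.97 (98% interval 1.88 to 2.07), and the ratio of Ninj1 to Gsdmd in TPM went from 0.727 to 1.70 and was 1.75 in APCs.

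Scaling matters for the genes near 0. Scaling by total reads shifted every log2 ratio between the monocyte populations by -0.18, and all genes of both monocyte libraries shifted the median of the 10 genes to 0.82. By reads, 9 of the 10 genes had an interval above 0, and none below 0, against 34.5% above and 48.5% below among all genes tested. Scaled by total reads, 6 lay above 0 and 1 below (Nlrc4), and over all genes of both monocyte libraries 6 lay above and 2 below (Nlrc4 and Pycard). Nlrp3, Casp4, Ninj1 and Nlrp1b were called under every scaling run. With an assumed spread between libraries (a coefficient of variation of 0.2), 2 of the 5 calls remained, Nlrp3 and Ninj1, and with 0.4 the count was 0.

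The second comparison asks what differs between APCs and the SC monocytes from which they are thought to arise. Of the 10 genes, 1 was called lower in APCs, Mefv, and 0 were called higher. Over all genes tested, 1.7% were called lower and 1.93% higher, or 165 and 188 genes, and after division by effective length 320 and 232. For 8 of the 10 genes the 98% interval lay below 0, as it did for 36.5% of all genes tested, and for none of the 10 above 0, against 28.4% of all. The median log2 ratio of the 10 genes was -0.49, against -0.04 for the 9734 genes tested. Divided by effective length, the median of the 10 genes was -0.46.

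Mefv fell by 2.01 on the log2 scale (98% interval -2.13 to -1.89), from 71.3 to 18.1 TPM, which makes it 4.04-fold lower in APCs. Divided by effective length its log2 ratio was -1.89, and Mefv was called there as well. It was not called with an assumed coefficient of variation of 0.4 between libraries. Among active genes it went from percentile 79.3 to percentile 47.2. The effective length of Mefv was 2669 bases in SC monocytes and 2699 bases in APCs, so it hardly differed between the transcript sets. Over the same pair of libraries, the summed TPM of the 7 monocyte genes went from 9365 to 3754, that of the 9 neutrophil genes from 192 to 414 and that of the 8 microglia genes from 99.2 to 265. Much of the monocyte sum is Ly6c2, which went from 3602 to 1067 TPM, and the level of Ly6C was what separated these populations in the sort. Among its other genes, Ccr2 went from 299 to 139 TPM, Fcgr1 from 274 to 138 TPM and Itgam from 533 to 510 TPM. Csf1r rose from 676 to 1134 TPM. The part of these cell types in the Mefv result was not tested.

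The other sensors were not called in this step. Nlrp3 had a log2 ratio of -0.67 (98% interval -0.72 to -0.62), or 1.59-fold lower in APCs, and Nlrc4 of -0.41 (98% interval -0.58 to -0.24). The intervals of Nlrp1b (-0.38 to 0.02) and Aim2 (-0.04 to 0.21) included 0. For Aim2 the measure decided the sign. Its log2 ratio was 0.09 by reads and -0.45 once divided by effective length, with effective lengths of 750.4 and 1191 bases.

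Downstream of the sensors, Pycard had a log2 ratio of -0.65 (98% interval -0.74 to -0.55) by reads and of -0.92 after division by effective length. Casp4 was at -0.71 (98% interval -0.82 to -0.59) and Casp1 at -0.46 (98% interval -0.57 to -0.35). Divided by effective length, Casp4 was at -0.50 and Casp1 at -0.18. Gsdmd and Ninj1 had values of -0.29 and -0.52 on reads, and of -0.48 and -0.43 divided by effective length. All of these were under the 2-fold threshold.

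**Figure D3:**
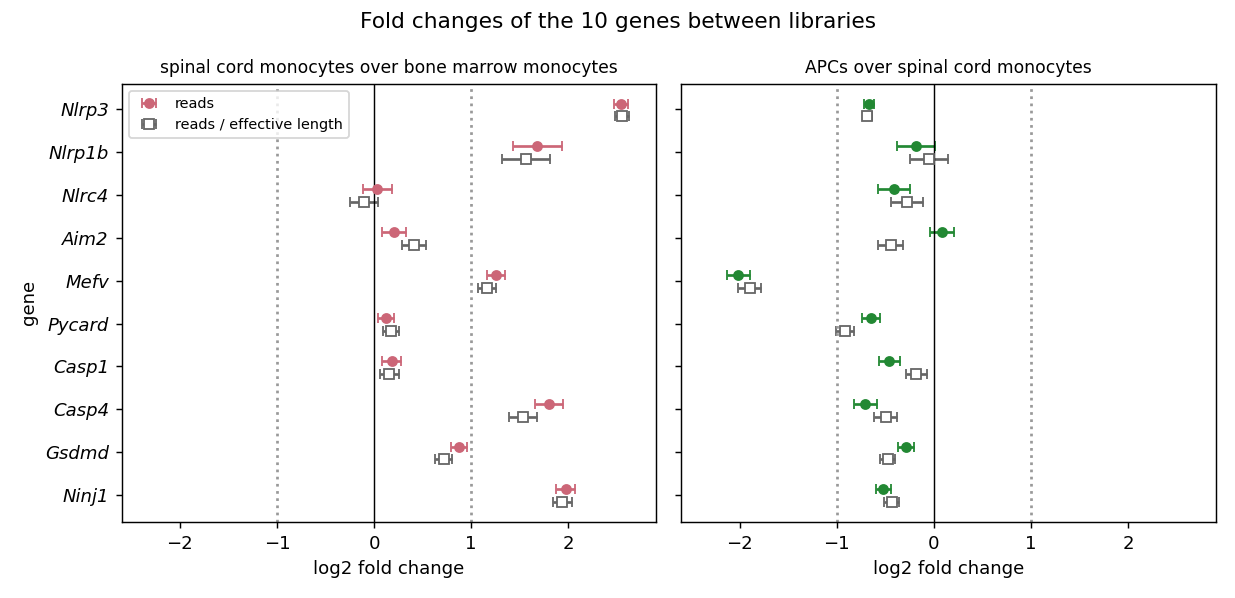
Log2 fold change (log2 ratio) (x axis) of each gene from bone marrow to SC monocytes (left) and from these to APCs (right), by reads (filled) and after division by effective length (open squares), with 98% counting intervals. Dotted lines mark a 2-fold change. Nlrp3 lies at 2.54 on the left, Mefv at -2.01 on the right, and Aim2 changes side on the right with the measure (0.09 and -0.45).

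Against BM monocytes, the calls in APCs were 3 higher and 0 lower of the 10 genes, namely Nlrp3, Nlrp1b and Ninj1. Over all genes tested, 14.0% were called higher and 11.8% lower, or 1426 and 1199 genes, and 1312 and 1448 when scaled by total reads. This comparison shares a library with each of the others and adds no independent measurement. Nlrp3 had a log2 ratio of 1.87 (98% interval 1.80 to 1.95), Nlrp1b of 1.499 (98% interval 1.25 to 1.75) and Ninj1 of 1.45 (98% interval 1.35 to 1.55). With an assumed coefficient of variation of 0.2 none of the 3 was called. Casp4 was at 1.10 (98% interval 0.95 to 1.25), where the interval included a 2-fold change. The interval lay above 0 for 6 of the 10 genes and below 0 for 4, against 34.0% and 49.9% of all genes tested. Pycard, Casp1, Nlrc4 and Mefv had values of -0.53, -0.27, -0.38 and -0.76, all with intervals below 0. Divided by effective length, the intervals of Casp1 and Aim2 included 0, which left 5 above and 3 below.

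By scaled reads, SC monocytes were highest, APCs next and BM monocytes lowest for Nlrp3, Nlrp1b, Casp4, Gsdmd and Ninj1. SC monocytes were highest and APCs lowest for Mefv, Pycard, Casp1 and Nlrc4. Aim2 had its highest scaled reads in APCs and its lowest in the bone marrow. Neighbours in these orders that did not differ beyond counting error were the spinal cord libraries for Nlrp1b and Aim2 and the monocyte libraries for Nlrc4. By TPM the order was different for Nlrc4, Aim2, Pycard, Casp1 and Gsdmd, and for these 5 genes the sign of at least 1 log2 ratio changed with the setting.

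Promoter sequences of 4 of the genes called higher in SC monocytes are shown. Their common direction follows from that choice, and shared control was not tested. Ninj1, also called higher, is not printed. Its window runs past the start of the gene as annotated, at 49187485. The printed Casp4 window does so as well, past its annotated start at 5308828. RefSeq promoters on GRCm38.p6 matched 9 of the 10 genes, in 12 windows. The 250 bases before each start were searched on both strands for GAAANNGAA (from the interferon response element), GGAANNGAA (a composite of ETS and IRF factors), GGNNTTTCC (an NF-kB form), TTCNNNGAA (GAS), TGANTCA (AP-1) and GAGGAAGT (PU.1). The first 2 differ in their second letter only, the forms were chosen after the expression values were seen, and matches may overlap. Capitals mark every match, and each sequence is given 5′ to 3′ along its gene.
Nlrp3, chr11:59541319-59541568, plus strand: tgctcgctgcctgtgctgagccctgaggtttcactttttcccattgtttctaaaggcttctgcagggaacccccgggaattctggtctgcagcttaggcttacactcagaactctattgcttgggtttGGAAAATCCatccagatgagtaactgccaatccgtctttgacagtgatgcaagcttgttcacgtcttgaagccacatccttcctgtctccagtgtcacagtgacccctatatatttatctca
Casp4, chr9:5308599-5308848, plus strand: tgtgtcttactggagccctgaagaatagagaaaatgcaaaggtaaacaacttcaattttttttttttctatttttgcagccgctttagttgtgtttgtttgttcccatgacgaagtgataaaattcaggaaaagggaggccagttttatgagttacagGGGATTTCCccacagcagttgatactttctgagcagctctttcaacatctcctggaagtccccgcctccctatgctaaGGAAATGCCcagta
Mefv, chr16:3718125-3718374, minus strand: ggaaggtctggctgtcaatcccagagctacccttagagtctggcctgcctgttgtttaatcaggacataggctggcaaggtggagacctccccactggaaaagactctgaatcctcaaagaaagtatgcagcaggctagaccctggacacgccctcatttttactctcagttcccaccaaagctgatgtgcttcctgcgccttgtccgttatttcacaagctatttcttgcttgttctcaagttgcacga
Nlrp1b, chr11:71230734-71230983, minus strand: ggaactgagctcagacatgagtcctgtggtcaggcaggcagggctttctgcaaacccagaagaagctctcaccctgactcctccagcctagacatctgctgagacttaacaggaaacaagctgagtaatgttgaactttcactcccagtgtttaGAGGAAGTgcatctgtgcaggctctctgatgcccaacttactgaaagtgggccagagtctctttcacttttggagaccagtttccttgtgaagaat

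The NF-kB form was found in 2 of the 9 genes, Casp4 and Nlrp3, and in 4.93% of all 32851 promoter windows or 5.62% of all genes with a window. The Casp4 window printed holds 2 matches, starting 92 and 14 bases before its RefSeq start. The match at 14 bases lies inside the Casp4 gene as annotated in GENCODE M21. The Nlrp3 window printed holds 1 match, starting 122 bases before its RefSeq start. The PU.1 form was present in 3 of the 9 genes, Nlrp1b, Aim2 and Pycard, and in 2.44% of all windows or 2.79% of genes. Of these 3, Aim2 and Pycard were not called. The composite was present in Casp1 and Nlrc4, which were not called, and in 6.99% of all windows or 8.01% of genes. The other motifs had 0 matches in the 12 windows, and they occur in 7.13% (interferon element), 7.02% (GAS) and 6.75% (AP-1) of all windows, or 8.18%, 8.13% and 7.82% of genes. A match is a description of letters and not a measured site, and no match says only that these letters are not in the window. The Mefv and Ninj1 windows held none of the 6.

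Other genes of the pathway were taken as 5 lists of 52 genes, of which 50 were found among the common genes by symbol. Between the monocyte populations, 12 of the 38 active genes were called higher and 3 lower, beside 13.8% and 10.7% of all genes tested. From SC monocytes to APCs, 0 of 36 were called higher and 1 lower, beside 1.93% and 1.7% of all. The medians were 0.34 and -0.36, against -0.15 and -0.04 over all genes tested.

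**Figure D4:**
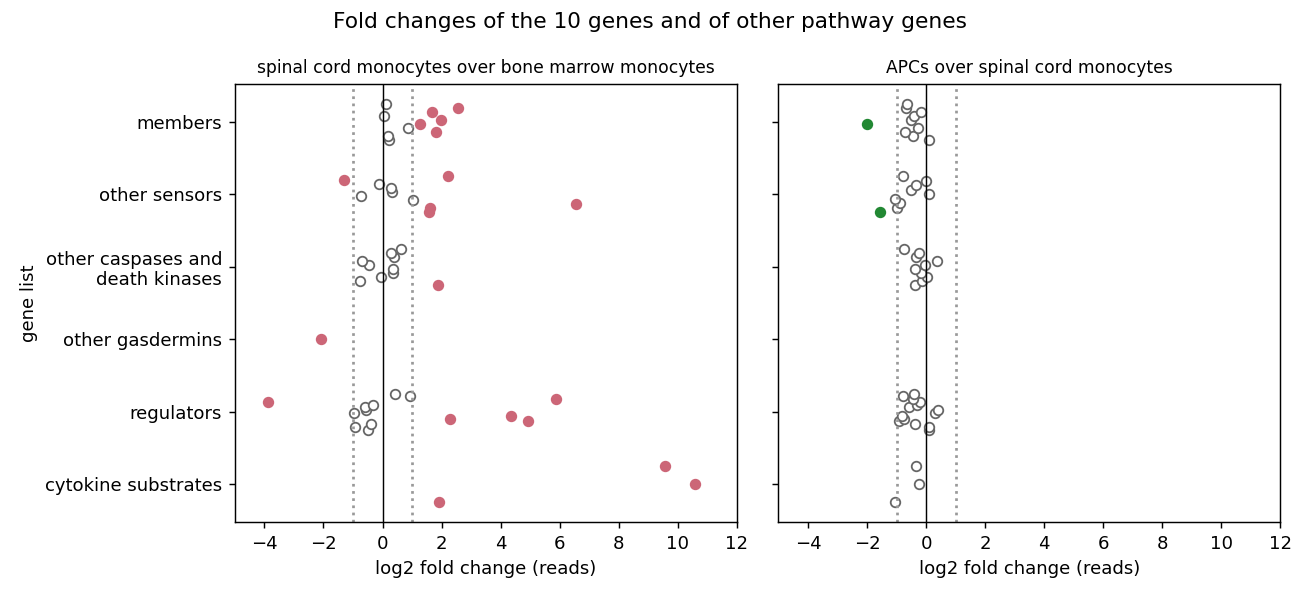
Log2 fold change (log2 ratio) on reads of the active genes of each list (rows, with the 10 genes in the row of members) in both comparisons. Filled points are called genes, open points are not called, and dotted lines mark a 2-fold change. On the left 5 of the 10 described genes and 15 of 38 others are called, and on the right 1 of 10 and 1 of 36, where fewer of all genes were called as well.

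Among the other sensors, 4 of 10 active genes were called higher between the monocyte populations and 1 lower, beside 13.8% and 10.7% of all genes tested. The other 5 were not called. Ifi205, a member of the same family of DNA-binding proteins as Aim2, rose from 5.94 to 450 TPM, a log2 ratio of 6.55. Zbp1, a sensor of Z-form nucleic acids that can start several kinds of cell death, rose from 117 to 417 TPM (2.20). Ifi204 and Ifi203 rose by 1.61 and 1.56, and the gene called lower was Nlrp1a. Ifi203 was also the single gene of these lists called in APCs against SC monocytes, where it fell by 1.54 on the log2 scale to 70.4 TPM. Nlrp6, Nlrp9b, Nlrp10 and Nlrp12 were at or below 0.723 TPM in every library. The Ifi200 genes are close paralogs among which reads can be split.

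Of the 8 other gasdermins, 1 was active in the first comparison. Gsdme, another pore-forming member of the family, fell from 11.8 TPM in BM monocytes to 2.30 TPM in SC monocytes, with a log2 ratio of -2.07 (98% interval -2.54 to -1.63), and it was 1.89 TPM in APCs. The other 7 had at most 10 reads in any library, and Gsdma2 and Gsdma3 had 0 in each. Gsdmd was thus the only gasdermin above 3 TPM in the spinal cord libraries. Ninj2, the paralog of Ninj1, had 0 reads in all 3 libraries.

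Of the 10 genes of other caspases and death kinases, 1 was called higher in the first comparison, Casp12, beside 13.8% of all genes tested. In APCs against SC monocytes 0 of them were called. Casp8, which can process gasdermin D and start apoptosis, had 90.5, 96.6 and 78.6 TPM in BM monocytes, SC monocytes and APCs. Mlkl and Ripk3, the effector and the kinase of necroptosis, had 43.2, 54.3 and 46.6 TPM and 33.6, 43.1 and 25.8 TPM.

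Among the regulators, 4 of 14 active genes were called higher and 1 lower between the monocyte populations, beside 13.8% and 10.7% of all genes tested. The other 9 were not called, and the median log2 ratio of the 14 was -0.36. No regulator was called in APCs against SC monocytes, beside 1.93% of all genes called higher and 1.7% lower. Gbp2, Gbp5 and Gbp3 encode interferon-induced GTPases that act on inflammasome pathways, and rose by 4.93, 4.35 and 2.30 on the log2 scale. Gbp2 reached 1081 TPM in SC monocytes and 585 TPM in APCs. Tnfaip3, which encodes A20, a restraint on NF-kB and on NLRP3, rose from 13.2 to 555 TPM, a log2 ratio of 5.86. Serpinb1a, an inhibitor of serine proteases and of inflammatory caspases, fell from 91.4 to 4.28 TPM (-3.89), beside a decline of the neutrophil list from 1239 to 192 TPM whose part was not tested. Nek7, which NLRP3 needs for its activation, had 61.7, 24.7 and 31.8 TPM and was not called at -0.98, and divided by effective length its value was -1.08. P2rx7, the ATP receptor upstream of NLRP3, had 31.0, 22.1 and 25.7 TPM and was not called either.

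The last list, shown as cytokine substrates, held Il1a, Il1b and Il18, and only Il1b and Il18 are taken here as substrates of caspase-1. All 3 were called higher in SC than in BM monocytes, beside 13.8% of all genes tested. Il1a had 12 reads in BM monocytes and 13724 in SC monocytes, a log2 ratio of 10.56, and stood at 0.327, 417 and 359 TPM in the 3 libraries. Il1b stood at 6.37, 3821 and 2899 TPM in the 3 libraries and Il18 at 12.6, 41.9 and 18.7 TPM, next to the 94.3, 88.9 and 74.1 TPM of Casp1, which matures both.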

How the data were processed

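RNA-Seq was done on 1 pooled library of each of 3 sorted populations (KAPA mRNA HyperPrep, paired reads of 50 bases). The authors estimated expression with Salmon 0.14.1 (submitters' processing notes) on GENCODE vM22 transcripts of mm10, pooling the transcripts of each gene. They deposited TPM, normalized for effective length and library size, and estimated counts of reads, not normalized, with fractions where a read was shared between transcripts. Filters, and the transcript set of the APC library, are not given in the sources used here. Of the 22225 genes of the APC library matched in GENCODE M21, 97.7% are annotated as protein coding. Counting by strand is not stated either, so reads of a gene and its antisense partner cannot be told apart.

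Estimated counts were rounded and compared over the 22238 genes listed in all 3 libraries. Identifiers without their versions were looked up in GENCODE M21 (GRCm38) for symbols and coordinates. GFold, with which the study defined a changed gene, was not run, and its definition was followed with other calculations. The log2 ratio was the median of a ratio of gamma distributions of the reads plus 1, with percentiles 1 and 99 as bounds. The reads were scaled with median-of-ratios size factors. Counts over all genes differ from those of the study. Between the monocyte populations the study reports more genes lower than higher in the spinal cord, the reverse of the main setting here. The study's threshold for active genes, 2 on log2 TPM, was read as 2 on log2(TPM + 1), hence 3 TPM, which the study does not state. With 4 TPM the calls of the 10 genes were the same. TPM has a 95% Wilson interval, and the floor was 3 reads. No test of the populations was possible with 1 library each. The scripts were tested on simulated data. The 10 genes are all named. Of each pathway list, called genes (at most the 6 with the largest change per comparison) and close paralogs of the 10 genes were named. Casp8, Ripk3, Mlkl, Nek7, P2rx7 and the low Nlrp genes were named after their values were seen. The members and lists were chosen with earlier results of these data known. Alternatives were other scalings, TPM thresholds, bounds, added reads, an assumed spread between libraries, and log2 of TPM with a pseudocount. The sum of Nlrp1a and Nlrp1b was added after seeing the data. The scripts ran in Python 3.11.15 (statsmodels 0.14.6, scipy 1.17.1, pandas 2.3.3, numpy 2.4.6, matplotlib 3.10.9), and edgeR 4.0.16 in R 4.3.3 gave the TMM factors alone.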

Additional observations from a re-analysis of the deposited data

Results flagged for a closer look

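Nlrp1c-ps, a pseudogene of the Nlrp1 locus, is listed in the monocyte libraries only and so lies outside the comparisons above. It had 33 reads in BM monocytes and 231 reads in SC monocytes, both above the 3 reads that a count of 0 allows, and it is not listed in the APC library. Its share in the reads of Nlrp1a and Nlrp1b was not tested.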

How the results depend on the processing

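An assumed spread between libraries changed the counts most. With a coefficient of variation of 0.2, 2 of the 10 genes (Nlrp3 and Ninj1) were still called higher in SC than in BM monocytes, and with 0.4 the count was 0. In APCs against BM monocytes both settings gave 0 called higher, and in APCs against SC monocytes 0.4 gave 0 called lower, so that Mefv was no longer called. These intervals are wider by construction. The other alternatives left all 6 counts within 1.5 times. The summed reads of Nlrp1a and Nlrp1b gave log2 ratios of -0.31 in SC against BM monocytes and -0.41 in APCs against BM monocytes. They describe the pair and not Nlrp1b, which held 14.3% of the pair's reads in BM monocytes. These 2 values of the pair were the only ones opposite in sign to a called value among 193 recomputed log2 ratios. Of the 193, 104 stayed within the 98% interval and 87 moved beyond it. Settings that change the interval alone are not in these counts. No paired analysis was possible because each population is 1 library, and for the same reason no library could be left out. Depth did not limit the 10 genes, whose lowest count was 255 reads.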
